A study of Mus musculus with 4 samples.

Results

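Cells lacking both Aspp1 and p53 were set against wild-type cells on 2 of the 4 arrays of the study, which hold one pool of RNA each. Mice of the Aspp1-/-p53-/- group carried Mx1-Cre, p53flox/flox and Aspp1-/- alleles, and the p53-/- mice Mx1-Cre and p53flox/flox. For Aspp1-/- mice the labels name only Aspp1-/-, and for WT mice none of these alleles. All mice were males on a C57BL/6 background and received 5 injections of the double-stranded RNA analogue pIpC from 8 weeks of age, WT included. Mx1-Cre is a recombinase driven by an interferon-responsive promoter, so that pIpC deletes p53 in the blood-forming cells that respond to it. The sources used here do not give the share of cells with deletion. The dose reads 403, 402, 401 and 400 μg in the labels of Aspp1-/-p53-/-, p53-/-, Aspp1-/- and WT but 400 μg for all mice in the protocol, so the steps of 1 μg may be an error of the labels. At 12 weeks of age, 4 weeks after pIpC, lineage(-) Sca-1(+) cKit(+) marrow cells (LSK cells) were sorted and the RNA of 3 mice per genotype was pooled for 1 array. There were no replicate arrays, so every value below is a difference between pools with no p-value, and Mx1-Cre and the slide row (row 2 for Aspp1-/-p53-/-, row 1 for WT) cannot be told apart from the loss of the genes. A gene was included when its probe was well above background on both arrays, which held for 13563 of the 22221 RefSeq genes on the array.

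LSK cells are the small marrow fraction that contains haematopoietic stem cells and multipotent progenitors. p53, encoded by Trp53, is a transcription factor that responds to stress and switches on genes for cell cycle arrest, such as Cdkn1a, and for apoptosis, such as Bbc3 and Pmaip1. ASPP1, encoded by Ppp1r13b, binds p53 and favours its action on pro-apoptotic genes. Early-response genes, among them the AP-1, EGR, NR4A and KLF factors, are transcribed within minutes of a stimulus without new protein synthesis, and many encode unstable RNAs or the feedback inhibitors that end the response.

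The targeted genes followed the labels. The Ppp1r13b probe gave a processed signal of 2060.1 in Aspp1-/-p53-/-, 12759 in p53-/-, 2247 in Aspp1-/- and 13182 in WT cells, so that it was low on both Aspp1-/- arrays. The Trp53 probe gave 169 in Aspp1-/-p53-/-, 164 in p53-/-, 820.2 in Aspp1-/- and 730.3 in WT cells, low on both arrays of mice with floxed p53. The log2 differences in Aspp1-/-p53-/- against WT cells were −2.59 ± 0.20 for Ppp1r13b and −2.02 ± 0.21 for Trp53, where ± is the error of the scanner software's own model and covers no difference between mice. All 11 markers of the LSK gate or of its stem cells were well above background on every array, with a summed level of 417 times the array's 75th percentile in Aspp1-/-p53-/- cells and 414 times in WT cells. Cd34 alone made up 108588 of the summed signal of 223245 in Aspp1-/-p53-/- and 114464 of 236095 in WT cells. The sum therefore says little of the dimmer markers. Probes well above background made up 50.3% of the Aspp1-/-p53-/- array and 53.3% of the WT array, and no probe was saturated.

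Most genes differed little. The median log2 difference over all measured genes was 0.03 with a standard deviation of 0.33 across genes, 95% of genes lay between −0.67 and 0.55, and 43.3% lay below 0. At least a 2-fold difference was reached by 250 genes, of which 174 were lower in Aspp1-/-p53-/- cells (1.28% of measured genes) and 76 were higher (0.56%). The genes just inside and just outside that threshold lay at −1.004 and −0.992 on the low side and at 1.001 and 0.999 on the high side. The lower and the higher genes differed in brightness. With all genes ranked by signal and divided into 4 bins of equal size, 67 of the higher genes lay in the dimmest bin, 7 and 2 in the next, and none in the brightest. The lower genes numbered 69 in the dimmest bin, 42 and 29 in the next, and 34 in the brightest. The spread of the differences was also widest in the dimmest bin, with a standard deviation of 0.47, against 0.24 in the brightest.

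**Figure D1:**
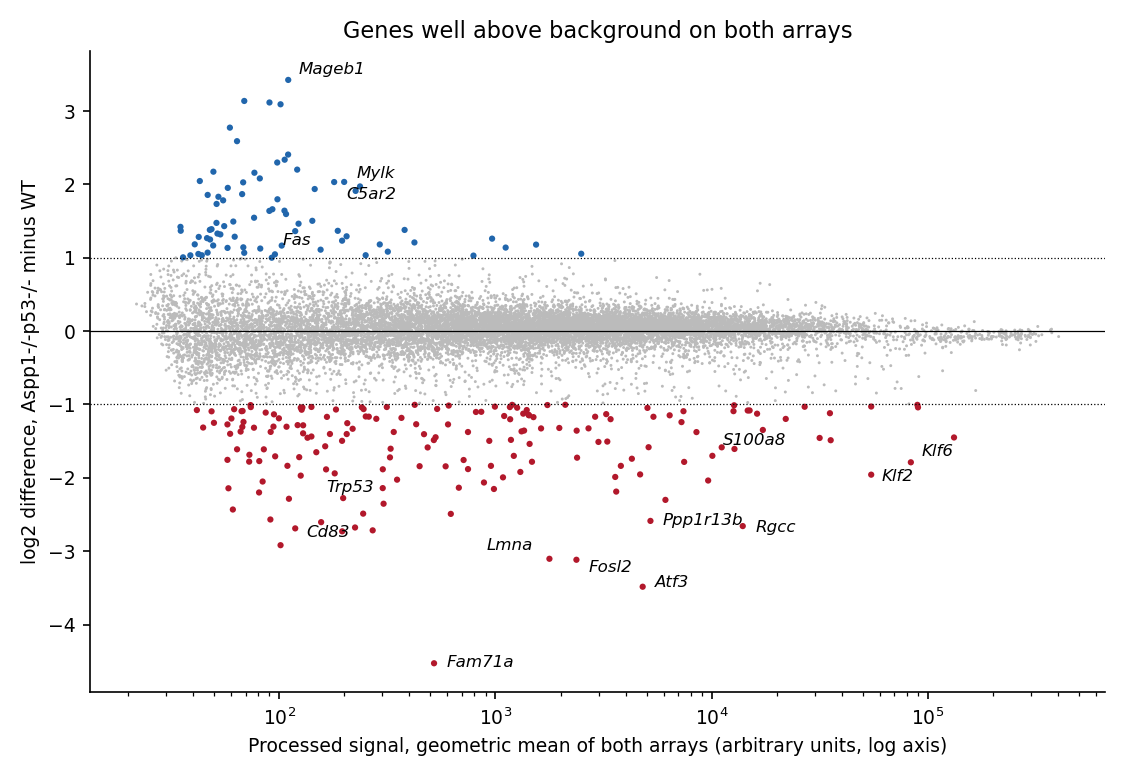
Log2 difference of each of 13563 genes in Aspp1-/-p53-/- against WT cells (vertical axis) over the geometric mean of its processed signal on both arrays (horizontal log axis, arbitrary units). Red points are the 174 genes at least 2-fold lower, found at all signals, and blue points the 76 genes at least 2-fold higher, nearly all dim; dotted lines mark 2-fold.

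Early-response genes were lower together. Of 95 members of the 6 lists of such genes 88 were measured on both arrays, and of these 29 were at least 2-fold lower (33.0%, against 1.28% of all genes), 1 was at least 2-fold higher, and the median log2 difference was −0.56. In RNA from sorted cells, fewer cells that express a gene and less RNA per cell cannot be told apart. Of the 29 lower genes 24 had the same order of arrays, with Aspp1-/-p53-/- lowest, then p53-/-, then Aspp1-/-, and WT highest. The ends of this order, Aspp1-/-p53-/- and WT, follow largely from the choice of genes by the 2-fold rule. That rule did not use the order of p53-/- and Aspp1-/-, but the lists were written with earlier results of these data known. All 29 were lower in p53-/- than in Aspp1-/- cells.

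AP-1 is a family of dimeric factors of FOS, JUN, MAF and ATF subunits. Of 15 measured members, 4 were at least 2-fold lower and none was at least 2-fold higher, with a median of −0.81. Atf3, a stress-induced repressor and activator of this family, gave a processed signal of 1389.7 in Aspp1-/-p53-/-, 4890.4 in p53-/-, 10504 in Aspp1-/- and 16562 in WT cells. It was 11.2-fold lower in Aspp1-/-p53-/- than in WT cells, at −3.48 ± 0.20 on the log2 scale, the second largest fall of all genes. Fosl2, which encodes the FOS-related protein Fra-2, gave 779 in Aspp1-/-p53-/-, 3327 in p53-/-, 5225 in Aspp1-/- and 7200.4 in WT cells, an 8.67-fold lower level in Aspp1-/-p53-/- cells. A further Fosl2 probe was dim, at 66.4 in WT cells and not well above background in Aspp1-/-p53-/- cells. Maff, a small MAF protein, was at −1.48 and Fosb at −1.03, while Fos at −0.99, Jun at −0.81 and Jund at −0.84 stayed short of 2-fold. The signal of Jun was 121822 in Aspp1-/-p53-/- and 227376 in WT cells. The BATF genes, whose products also pair with JUN proteins, lay above 0, with Batf3 at 0.89, Batf2 at 0.45 and Batf at 0.21.

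The EGR and NR4A list holds zinc finger and orphan nuclear receptor genes of the same kinetic class, and also Srf, Nab1 and Nab2. Of its 8 measured members 4 were at least 2-fold lower, with a median of −1.07. Nr4a2, an orphan nuclear receptor, gave 1949.8 in Aspp1-/-p53-/-, 4136 in p53-/-, 6317 in Aspp1-/- and 7417 in WT cells, and its other probe was as low, at −1.90 against −1.84. Its relative Nr4a1 gave 77474 in Aspp1-/-p53-/- and 225342 in WT cells, a difference of −1.45. Egr4 was at −1.37 and Egr2 at −1.36. Egr2 did not keep the order of the arrays, since its signal was 822 in Aspp1-/-p53-/-, 2466 in p53-/-, 3526 in Aspp1-/- and 2240.1 in WT cells. Egr1 was at −0.78, and Nab2, a corepressor that EGR proteins induce, at −0.38.

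The Krüppel-like factors split in a few large differences and many small ones. Klf2, Klf6 and Klf4 were at least 2-fold lower among 13 measured members, and the median of the list was −0.18. Klf2, which holds lymphocytes and other blood cells in a resting state, gave 26902 in Aspp1-/-p53-/-, 61743 in p53-/-, 99751 in Aspp1-/- and 111203 in WT cells. Klf6 gave 43504 in Aspp1-/-p53-/- and 160000.0 in WT cells, and Klf4 6229 in Aspp1-/-p53-/- and 19890.2 in WT cells, differences of −1.79 and −1.58. None of the others passed 2-fold, with Klf9 at −0.72 nearest to it and Klf1, the erythroid factor, at 0.08.

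The list of phosphatases and other regulators of MAP kinase and Ras signalling, most of them feedback inhibitors, held 5 lower genes among 16 measured members, with a median of −0.62. Dusp5, a nuclear phosphatase of ERK, gave 313 in Aspp1-/-p53-/-, 832 in p53-/-, 1166 in Aspp1-/- and 1464 in WT cells, a 4.39-fold lower level. Spry1, an inhibitor of receptor tyrosine kinase signalling, was at −1.99, Dusp10, a phosphatase of JNK and p38, at −1.88, Rasgef1b, an exchange factor that activates small GTPases, at −1.51 and Errfi1, an inhibitor of the EGF receptor, at −1.16. Errfi1 was at −0.90 when the raw intensities were corrected by the normexp model of background, named normexp below. Dusp8, another JNK phosphatase, stood apart at 3.12. Its probe gave 257 in Aspp1-/-p53-/- and 31.6 in WT cells, and it was not well above background in p53-/- cells. Among the 4 arrays the probe was thus bright only in Aspp1-/-p53-/- cells.

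Genes that shorten RNA life or dampen G protein signals were lower in 6 of 14 measured members of the IER and mRNA-decay list, with a median of −0.74. Zfp36, which encodes the RNA-destabilising protein tristetraprolin, gave 4573 in Aspp1-/-p53-/-, 9320.1 in p53-/-, 12168 in Aspp1-/- and 11504 in WT cells, and its relative Zfp36l1 was at −1.15. Btg2 was at −1.38, Ier2 at −1.09, Rgs2 at −1.04 and Rgs1, a regulator of chemokine receptor signalling, at −1.03. With quantile normalization Rgs1, Rgs2 and Fosb came to −0.99, −0.97 and −0.97, just short of 2-fold. Ier5l lay at 0.70.

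Targets and inhibitors of NF-kB were lower in 7 of 22 measured members, with a median of −0.37, whereas the subunits themselves stayed under 2-fold, from −0.56 for Relb to −0.07 for Nfkb1. Tnfaip3, which encodes the ubiquitin-editing inhibitor A20, gave 4609.6 in Aspp1-/-p53-/-, 8679.5 in p53-/-, 13274 in Aspp1-/- and 20138 in WT cells, a 4.10-fold lower level in Aspp1-/-p53-/- cells. Cd83, an activation marker, gave 102 in Aspp1-/-p53-/-, 390.2 in p53-/-, 599.8 in Aspp1-/- and 716 in WT cells. The secreted members were lower too, with the cytokine Il1b at −1.72, the neutrophil chemoattractant Cxcl2 at −1.60 and the chemokines Ccl4 and Ccl3 at −1.49 and −1.20. Of the inhibitors, Nfkbid passed at −1.13, and Nfkbia at −0.41 and Nfkbie at −0.10 did not. Against 1.28% of all genes, the cytokine list as a whole held 6 genes at least 2-fold lower among 30 measured. They were these 4, Cxcl12, and Il10 at −1.61, which was at −0.73 with normexp. The JAK-STAT feedback genes, also transcribed early, held none among 16, between −0.49 for Pim3 and 0.25 for Pim2, with Socs3 at −0.35.

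**Figure D2:**
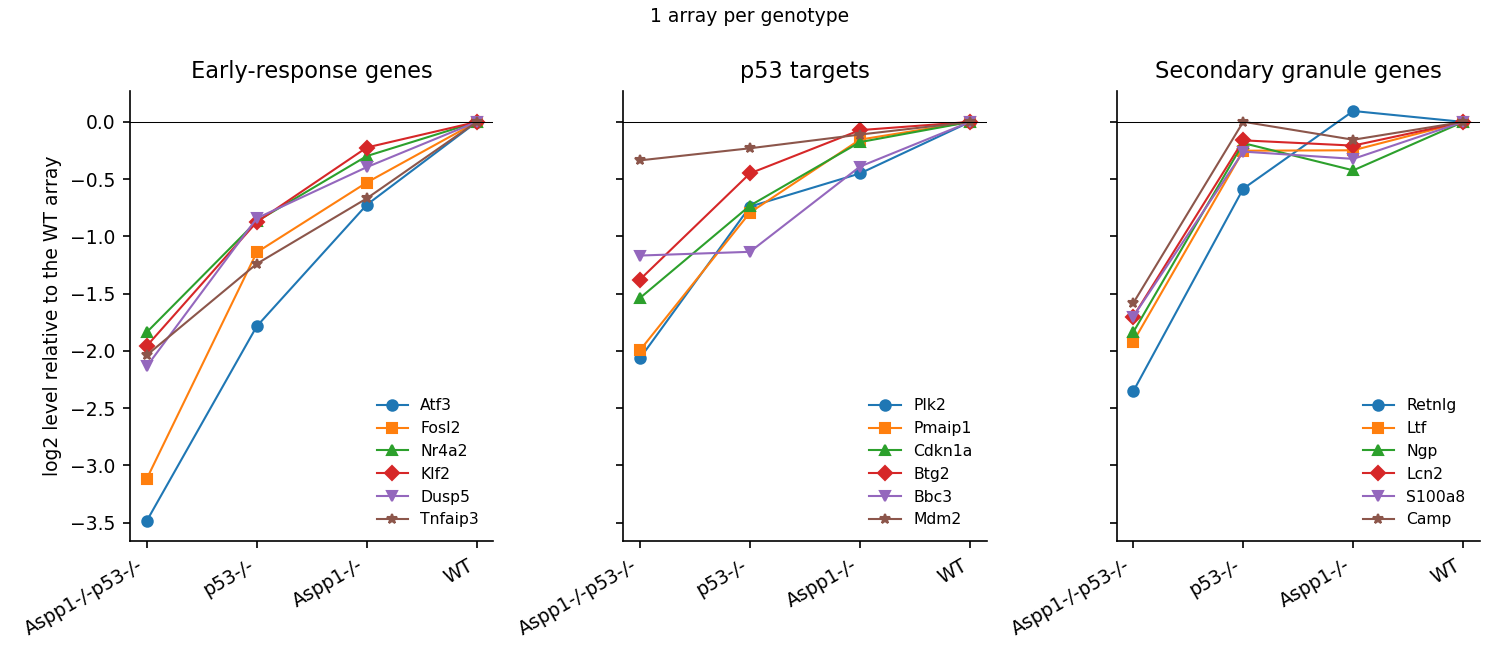
Log2 level of 18 named genes on each array relative to the WT array (vertical axis), with the arrays of Aspp1-/-p53-/-, p53-/-, Aspp1-/- and WT cells from left to right and 1 array per genotype; lines join the values of a gene and stand for no order in time. The early-response genes and Plk2, Pmaip1, Cdkn1a and Btg2 are intermediate on the p53-/- array, Bbc3 is as low there as on the Aspp1-/-p53-/- array, and the granule genes stand apart on the Aspp1-/-p53-/- array.

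Some start-site regions of the lower genes hold letters known to be bound by transcription factors. Those of 4 early-response genes, of the p53 target Plk2 and of F3, the gene of tissue factor, are shown because between them they hold matches to all 5 of the sequences searched. Each sequence is from RefSeq (GRCm38.p6), runs 5′ to 3′ on the gene's strand from 250 bases before to 50 bases after the start site, and has in capitals every match, on either strand, to the cyclic AMP response element (CRE, TGACGTCA), the AP-1 site (TGANTCA), the EGR site (GCGNGGGCG), the CArG box and the NF-kB site. Btg2 (chr1:134079106-134079405, minus strand) has a CRE 166 bases before the start and an EGR match, and Plk2 (chr13:110394794-110395093, plus strand) a CRE 62 bases before it. Tnfaip3 (chr10:19015361-19015660, minus strand) has an AP-1 site and a pair of NF-kB matches, 125 and 12 bases before the start. In Cxcl2 (chr5:90903649-90903948, plus strand) the NF-kB matches on both strands overlap in 1 run of letters. Dusp5 (chr19:53528895-53529194, plus strand) has adjoining CArG boxes, 82 and 72 bases before the start, and F3 (chr3:121723287-121723586, plus strand) has a pair of AP-1 sites, 146 and 135 bases before it.
Btg2: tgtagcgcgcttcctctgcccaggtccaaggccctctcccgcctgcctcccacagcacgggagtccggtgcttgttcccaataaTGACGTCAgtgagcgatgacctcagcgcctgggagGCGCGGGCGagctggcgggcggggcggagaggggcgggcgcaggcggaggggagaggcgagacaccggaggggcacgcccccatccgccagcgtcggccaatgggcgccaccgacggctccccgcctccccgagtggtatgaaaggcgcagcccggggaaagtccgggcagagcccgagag
Plk2: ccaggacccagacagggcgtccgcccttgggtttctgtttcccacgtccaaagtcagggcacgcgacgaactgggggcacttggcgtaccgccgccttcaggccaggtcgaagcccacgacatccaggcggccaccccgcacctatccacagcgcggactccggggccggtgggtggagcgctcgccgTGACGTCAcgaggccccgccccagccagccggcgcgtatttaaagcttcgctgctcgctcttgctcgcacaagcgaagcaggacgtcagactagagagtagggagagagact
Tnfaip3: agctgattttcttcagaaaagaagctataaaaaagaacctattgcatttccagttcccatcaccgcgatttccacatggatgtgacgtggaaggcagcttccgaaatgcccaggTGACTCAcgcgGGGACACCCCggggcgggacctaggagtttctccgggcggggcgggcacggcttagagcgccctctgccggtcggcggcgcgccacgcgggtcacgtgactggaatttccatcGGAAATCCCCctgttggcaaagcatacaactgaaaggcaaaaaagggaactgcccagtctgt
Cxcl2: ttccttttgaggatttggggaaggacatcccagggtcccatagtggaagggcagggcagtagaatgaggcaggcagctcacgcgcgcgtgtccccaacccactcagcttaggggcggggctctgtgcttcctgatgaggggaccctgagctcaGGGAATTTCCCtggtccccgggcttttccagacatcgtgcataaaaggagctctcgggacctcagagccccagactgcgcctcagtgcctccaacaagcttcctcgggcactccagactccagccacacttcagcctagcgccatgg
Dusp5: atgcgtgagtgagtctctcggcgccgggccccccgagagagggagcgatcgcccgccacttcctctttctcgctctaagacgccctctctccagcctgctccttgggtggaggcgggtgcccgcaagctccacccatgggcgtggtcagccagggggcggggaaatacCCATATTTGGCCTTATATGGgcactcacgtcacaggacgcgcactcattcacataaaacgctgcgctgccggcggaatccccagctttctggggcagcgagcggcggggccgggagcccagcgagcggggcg
F3: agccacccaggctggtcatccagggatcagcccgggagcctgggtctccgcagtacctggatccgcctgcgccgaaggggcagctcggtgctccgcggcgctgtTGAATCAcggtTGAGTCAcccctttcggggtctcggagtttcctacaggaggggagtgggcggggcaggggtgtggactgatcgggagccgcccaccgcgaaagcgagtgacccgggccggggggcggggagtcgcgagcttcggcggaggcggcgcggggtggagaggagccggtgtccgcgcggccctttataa

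These matches are letters in a window and not tested binding sites. The regions of Atf3, Klf6, Spry1, Dusp10, Il1b and Ccl3 held none of the 5. For 25 of the 29 lower early-response genes there were 35 windows, of which 31.4% held an EGR match, 22.9% an NF-kB match, 17.1% a CArG box, 11.4% a CRE and 5.71% an AP-1 site. A gene can have several windows, so these are shares of windows and not of genes. The windows with a CArG box were those of Dusp5 and Zfp36 and several of the single gene Egr2. The table held start-site windows for 130 of the 174 lower genes, 178 windows in all, for 58 of the 76 higher genes, with 66 windows, among 32851 windows in all. A CRE was present in 5.62% of windows of the lower genes, 3.03% of windows of the higher genes and 1.79% of all windows. An NF-kB match was in 10.67% of windows of lower genes, 6.06% of those of higher genes and 4.51% of all. An EGR match was in 12.9% of windows of lower genes, 6.06% of those of higher genes and 5.55% of all. A CArG box was in 3.37% of windows of lower genes and 1.63% of all, with none in those of higher genes. These windows of lower genes were again those of Egr2, Dusp5 and Zfp36 alone. The AP-1 site was in 6.18% of windows of lower genes, 12.1% of those of higher genes and 7.81% of all. The 13598 windows of 10735 measured genes held CRE, EGR and NF-kB matches in 2.92%, 9.92% and 5.18%, and a CArG box and an AP-1 site in 1.32% and 5.32%.

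p53 targets were lower in part. Of 43 genes on the 2 p53 target lists together 42 were measured, and of these 7 were at least 2-fold lower (16.7%, against 1.28% of all genes), 1 was at least 2-fold higher and 34 lay under 2-fold, with a median of −0.11. Plk2, a polo-like kinase that responds to stress, gave 419 in Aspp1-/-p53-/-, 1138 in p53-/-, 1432 in Aspp1-/- and 1867 in WT cells. Pmaip1, whose product Noxa promotes apoptosis, gave 526 in Aspp1-/-p53-/-, 1312 in p53-/-, 2100.3 in Aspp1-/- and 2232 in WT cells. For both genes the p53-/- array lay between those of Aspp1-/-p53-/- and WT cells. Bbc3, which encodes Puma, had another pattern, with 1870.2 in Aspp1-/-p53-/-, 2073 in p53-/-, 3574 in Aspp1-/- and 4471 in WT cells, so that its difference of −1.17 was close to the −1.13 of p53-/- against WT cells. Phlda3, a repressor of Akt, was likewise at −1.10 and −0.87 in these comparisons, which share the WT array, and its value with normexp was −0.99.

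Cdkn1a, the cell cycle inhibitor p21, was measured by its brightest probe at 818 in Aspp1-/-p53-/-, 1551 in p53-/-, 2345 in Aspp1-/- and 2529.8 in WT cells, a difference of −1.54 ± 0.20. That probe lies at 29237377 to 29237436 on chromosome 17 (mm9, plus strand). Another Cdkn1a probe, at 29235299 to 29235358, gave 134 in Aspp1-/-p53-/- and 156 in WT cells, a difference of −0.13, and the mean of both probes was −0.83. Btg2, an antiproliferative gene, was at −1.38, and Epha2, an ephrin receptor, at −1.11, which became −0.59 with normexp. Of the 7 lower genes Epha2 alone was above 0 in p53-/- against WT cells, at 0.49. Fas, the death receptor gene, gave 127 in Aspp1-/-p53-/-, 53.4 in p53-/-, 47.6 in Aspp1-/- and 67.4 in WT cells, on the threshold at 1.001, and was at 0.95 with quantile normalization and 0.73 with normexp.

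Among the p53 targets under 2-fold, Plk3 at −0.93, Tnfrsf10b at −0.63, Zmat3 at −0.62, Sfn at −0.61 and Ddit4 at −0.58 were the lowest. Mdm2, the ubiquitin ligase that p53 induces against itself, was at −0.34, and Ccng1 and Trp53inp1 were both at −0.31. Sesn2, Dcxr, Ak1, Perp and Nupr1 lay between −0.27 and −0.18, and Ppm1d, Rrm2b, Bax, Sesn1, Ei24, Tnfrsf1a and Apaf1 between −0.12 and 0. Polk, Aen, Xpc, Gtse1, Fdxr and Cd80 lay between 0.03 and 0.09. Casp1, Gadd45a, Siva1, Ddb2, Tigar, Bid, Ccnd1 and Pidd1 lay between 0.16 and 0.30. In the BCL2 family, to which Bbc3 and Pmaip1 also belong, Bcl2l11, the gene of the pro-apoptotic protein Bim, was at −1.30 with a further probe at −0.40, and at −0.69 with normexp. The 11 other measured members lay between −0.45 for Bmf and 0.41 for Bcl2 by their brightest probes. Further probes lay outside that range for Mcl1, at −0.86 against −0.11, and for Bcl2l1, at 0.58 against 0.17.

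Granule genes of maturing neutrophils were lower as well. Of 26 members of the secondary and tertiary granule list 21 were measured on both arrays and 5 were well above background on 1 of them. Of the 21, 11 were at least 2-fold lower, against 1.28% of all genes, and none was higher, with a median of −1.32. Retnlg gave 130.3 in Aspp1-/-p53-/-, 481 in p53-/-, 793 in Aspp1-/- and 709 in WT cells. Ltf, the gene of lactoferrin, gave 649 in Aspp1-/-p53-/-, 2237 in p53-/-, 2308 in Aspp1-/- and 2617 in WT cells, and S100a9, a part of calprotectin, gave 18476 in Aspp1-/-p53-/-, 49457 in p53-/-, 50241 in Aspp1-/- and 53988 in WT cells. For all 11 genes the Aspp1-/-p53-/- array was the lowest, and their median against WT was −0.18 in p53-/- and −0.25 in Aspp1-/- cells, against −0.63 and −0.29 for the 29 lower early-response genes. Ngp, Itgb2l, Mmp8, Lcn2, S100a8, Camp, Wfdc21 and Chil3 completed the 11, from −1.84 for Ngp to −1.32 for Chil3. Camp encodes cathelicidin and Lcn2 lipocalin, both proteins of these granules. Mmp8 and Itgb2l, the dimmest, were at −0.77 and −0.91 with normexp. With that correction the median of the list was −0.77.

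Other genes of the neutrophil lineage did not share this size. Cebpe, the factor that drives secondary granule genes, was at −0.54, the surface marker gene Ly6g at −0.05 and the receptor gene Csf3r at 0.01. Of 17 measured genes of primary granules and early granulocytes none passed 2-fold, with a median of 0.04. Mpo, the gene of myeloperoxidase, gave 122623 in Aspp1-/-p53-/-, 139876 in p53-/-, 125067 in Aspp1-/- and 135026 in WT cells. Elane was at −0.37, Ctsg at 0.23, Fcnb at −0.53 and Cebpb at −0.85. Of 10 granulocyte markers, 9 were well above background in Aspp1-/-p53-/- cells and all 10 in WT cells, Cd177 being the exception. Their summed level was 54.1 times the array's 75th percentile in Aspp1-/-p53-/-, 141 in p53-/-, 137 in Aspp1-/- and 157 in WT cells. All of these markers but Ly6g and Cd177 are among the lower granule genes above, and S100a8 and S100a9 are the brightest. The sum therefore repeats those genes and is not a separate measure. The sort removes lineage-positive cells, and the part of other cells in this result was not tested. In the other marker sets the summed levels of Aspp1-/-p53-/- and WT cells were 13.9 and 13.4 for monocytes, 9.78 and 9.21 for B cells, 3.39 and 4.00 for T and natural killer cells, 0.560 and 0.631 for erythroid cells and 13.97 and 14.5 for megakaryocytes. Pax5, Ms4a1, Cd3g, Cd8a, Ncr1 and Alas2 were not well above background on either array.

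**Figure D3:**
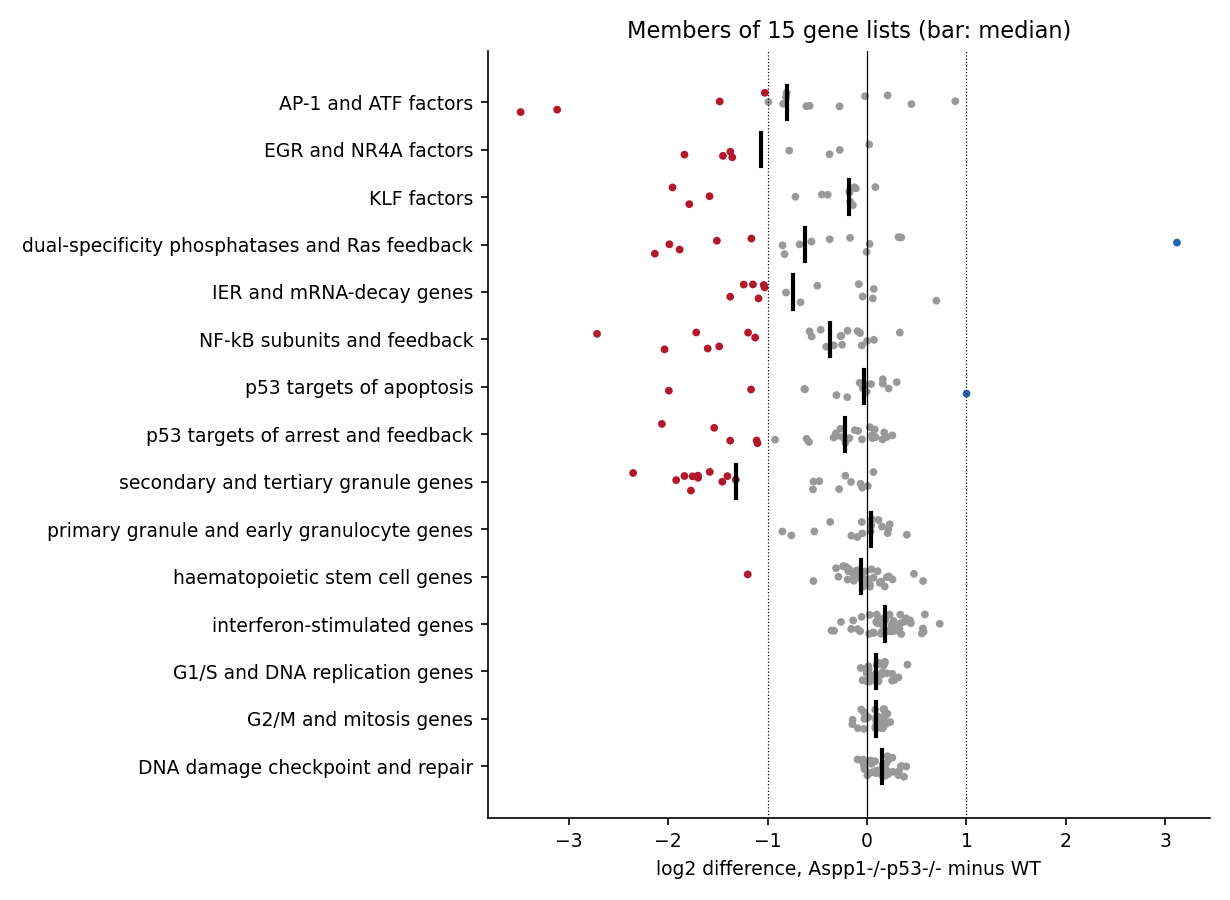
Log2 difference in Aspp1-/-p53-/- against WT cells (horizontal axis) of each measured member of 15 gene lists, 1 point per gene, with the median as a black bar and dotted lines at 2-fold. Red points are genes at least 2-fold lower and blue points genes at least 2-fold higher; the EGR and NR4A and the secondary granule lists have medians past 2-fold, and the stem cell, interferon, replication, mitosis and repair lists lie close to 0.

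Stem cell genes showed small differences. Of 40 measured members 1 was at least 2-fold lower and none was higher, with a median of −0.06. That gene, Myct1, gave 2179 in Aspp1-/-p53-/-, 3327 in p53-/-, 4199 in Aspp1-/- and 5332 in WT cells, with a further probe at −0.58, and averaged over both it was at −0.89. The gate genes Kit and Ly6a were at −0.05 and 0.22. Procr, which encodes the endothelial protein C receptor of stem cells, was at −0.24, and Mecom, Meis1 and Hlf were at 0.11, 0.13 and −0.20. Runx1, a master factor of definitive blood formation, was at −0.54, with a further probe at −0.02. The HOX genes, which encode homeodomain factors of self-renewal, lay below 0 in 7 of 20 measured members, close to the 43.3% of all genes, with Hoxa9 at 0.47 and Hoxa6 at 0.51. Hoxb8 at 1.42 passed 2-fold on a dim probe and came to 0.60 with normexp.

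Lineage genes outside the neutrophil series seldom passed 2-fold. None of 22 lymphoid-primed progenitor genes did, with Flt3 at 0.03, Il7r at 0.11 and Mef2c at −0.53. Likewise none of 17 B-lineage genes, 16 T and natural killer cell genes, 17 erythroid genes or 13 mast cell genes did, and their medians were −0.07, −0.06, 0.08 and −0.19. Igll1, a part of the pre-B receptor, was at 0.35, and Epor, the erythropoietin receptor gene, at 0.34. In the monocyte and dendritic cell list 1 of 19 passed, Klf4, while Csf1r was at 0.07, Irf8 at 0.30 and Cd14 at 0.63. Of the 22 platelet and megakaryocyte genes 3 were at least 2-fold lower and 1 was higher, against 1.28% and 0.56% of all genes. F3 gave 35.7 in Aspp1-/-p53-/-, 129 in p53-/-, 209 in Aspp1-/- and 288 in WT cells, Thbs1, which encodes thrombospondin, was at −1.61, and Plek, the platelet gene of pleckstrin, at −1.08. The defining genes Pf4, Gp9 and Itga2b of that lineage were at −0.07, 0.00 and −0.11, and Thbs1 was at −0.81 with normexp.

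Among receptors and ligands of stem cell signalling, few members of each pathway passed 2-fold. Over all genes 1.28% were at least 2-fold lower. In the Notch list 2 of 14 measured members were at least 2-fold lower: the ligand Jag2, which gave 377 in Aspp1-/-p53-/-, 702 in p53-/-, 1131 in Aspp1-/- and 1479 in WT cells, and the feedback inhibitor Nrarp, at −1.65. Hes1, a direct Notch target, was at −0.68 and the receptor Notch1 at −0.47. In the TGF-beta list Skil, an inhibitor of SMAD proteins, gave 452 in Aspp1-/-p53-/-, 879 in p53-/-, 1496 in Aspp1-/- and 2141 in WT cells and had a further probe at −2.27. Smad7, the inhibitory SMAD, was on the threshold at −1.004, or −0.99 with normexp, and the receptors Tgfbr1 and Tgfbr2 were at −0.04 and −0.13. Of the Wnt list none of 20 passed, with Fzd4 at −0.96. Of 34 cytokine and growth factor receptors 1 passed, Il1r2, a decoy receptor for interleukin-1, which gave 87.0 in Aspp1-/-p53-/-, 186 in p53-/-, 301 in Aspp1-/- and 449 in WT cells.

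Against 1.28% of all genes, adhesion and retention genes held 2 of 28 measured members at least 2-fold lower. They were Cxcl12, which encodes a chemokine of the marrow niche that holds stem cells in place, with 36.5 in Aspp1-/-p53-/-, 71.4 in p53-/-, 109.6 in Aspp1-/- and 178 in WT cells, and its fellow niche gene Vcam1, with 39.9 in Aspp1-/-p53-/-, 112 in p53-/-, 108 in Aspp1-/- and 176 in WT cells. Both are dim here, and the receptors for them, Cxcr4 and Itga4, were at −0.22 and 0.05. Of the 6 markers of stromal and endothelial cells Col1a1, Cdh5 and Pdgfra were not well above background on either array, and the summed level of the others was 6.22 times the array's 75th percentile in Aspp1-/-p53-/- and 8.41 times in WT cells. In the list of lymphocyte activation receptors 3 of 20 were at least 2-fold lower. Besides Cd83 these were the costimulatory receptor gene Cd28, with 254 in Aspp1-/-p53-/-, 673 in p53-/-, 1056 in Aspp1-/- and 1522 in WT cells, and Cd69, at −1.09, which encodes a receptor that keeps lymphocytes from leaving tissue.

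Genes that cyclic AMP induces, and others of G protein signalling, were at least 2-fold lower in 6 of 31 measured members, against 1.28% of all genes. Crem, a transcription factor of the cyclic AMP response, gave 139 in Aspp1-/-p53-/-, 298 in p53-/-, 442 in Aspp1-/- and 652 in WT cells, and its other probe was at −1.71. Pde4b, a phosphodiesterase that breaks down cyclic AMP, gave 2267 in Aspp1-/-p53-/-, 3814 in p53-/-, 6446 in Aspp1-/- and 8062 in WT cells, and its 3 probes lay between −1.82 and −1.74. S1pr1, the receptor by which blood cells follow sphingosine-1-phosphate out of tissue, was at −1.38 and the orphan receptor Gprc5a at −1.005. Gnaz, a G protein alpha subunit, was higher at 2.30, but its other probe was at 0.42. Glucocorticoid-responsive genes were lower in part, with the circadian repressor Bhlhe40 at −1.33, the kinase gene Sgk1 at −1.17 and Tsc22d3, which encodes GILZ, at −1.12. These were 3 of 20 measured, while Fkbp5, another glucocorticoid target, was at 0.12, the clock gene Per1 at −0.89 and Arntl at 0.05.

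The nuclear lamina was represented by a large difference in a single gene. Lmna, which encodes the A-type lamins, gave 587 in Aspp1-/-p53-/-, 1570.4 in p53-/-, 3220.0 in Aspp1-/- and 5376 in WT cells, an 8.59-fold lower level in Aspp1-/-p53-/- cells. The B-type lamin genes Lmnb1 and Lmnb2 were at 0.15 and 0.03, the lamin B receptor Lbr at −0.01 and emerin, Emd, at −0.22. Of the 31 measured lamina and cytoskeleton genes, Ahnak, a scaffold protein, was also past 2-fold at −1.08, with a further probe at 0.08, and Mylk, a myosin kinase, was higher at 2.03, with a further probe at 0.06. In the unfolded protein and integrated stress response list, 2 of 28 were at least 2-fold lower, against 1.28% of all genes. These were Ddit3, the gene of the factor CHOP, with 797 in Aspp1-/-p53-/-, 1237 in p53-/-, 1724 in Aspp1-/- and 2188 in WT cells, and Chac1 at −1.19, which was at −0.51 with normexp. Atf4, the factor upstream of both, was at −0.82, and Asns and Trib3, other targets of Atf4, were at 0.06 and 0.08.

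Several large groups had small differences, and are read against the 43.3% of all genes that lay below 0. By their brightest probes none of the 46 interferon-stimulated genes passed 2-fold, and 8 lay below 0, with a median of 0.18 against 0.03 for all genes. Cxcl10 was at −0.14 by that probe, but its further probe was at 1.17. Oas2 gave 6947 in Aspp1-/-p53-/-, 6065 in p53-/-, 3986 in Aspp1-/- and 4458 in WT cells, Ifit3 was at 0.58 and Mx1 at 0.57, and both arrays of mice with Mx1-Cre were the higher ones for these genes. DNA repair genes lay below 0 in 7 of 39 with a median of 0.15, led by Lig4 at 0.40 ± 0.21 and Brca1 at 0.37 ± 0.28. Both probes are dim, with Lig4 at 189 in Aspp1-/-p53-/- and 153 in WT cells, and Brca1 at 58.7 and 48.3. Replication genes lay below 0 in 6 of 34 with a median of 0.09. In that list E2f3 was at 0.41, with a further probe at −0.01, and Ccne1, the gene of cyclin E1, at 0.32. Mitosis genes, nearer to the share of all genes, lay below 0 in 10 of 31 with a median of 0.09. Ribosomal protein genes lay below 0 in 26 of 28 with a median of −0.07, and oxidative phosphorylation genes in 6 of 28 with a median of 0.04. In the list of the MYC network none passed, with Mycn at 0.96, its signal being 4826 in Aspp1-/-p53-/-, 4406 in p53-/-, 3834 in Aspp1-/- and 2639 in WT cells, and Myc at 0.45.

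Leaving lists aside, the largest falls were led by Fam71a, with 105 in Aspp1-/-p53-/-, 1624 in p53-/-, 2748 in Aspp1-/- and 2578 in WT cells, a 23.1-fold lower level. The Fam71a probe starts at 192986463 on chromosome 1 (mm9, minus strand) and the Atf3 probe close by, at 192994547 on the same strand. Whether the Fam71a and Atf3 probes detect separate transcripts was not tested. Rgcc, a regulator of cell cycle progression, was also among the largest falls, with 5373 in Aspp1-/-p53-/-, 14239 in p53-/-, 29539 in Aspp1-/- and 36103 in WT cells. The others of the 15 largest falls, beyond those described, were Apol8 at −2.69, Mybpc3 at −2.60, Apold1 at −2.57, and Gm5639, Gm5640 and DXBay18 at −2.73, −2.68 and −2.49. The last 3 had closely similar values on all arrays, and whether their probes detect separate transcripts is uncertain. Among the 1357 brightest genes, those with a signal of at least 13145 on either array, 27 were at least 2-fold lower and none was higher. Adgre5, which encodes the adhesion receptor CD97, gave 2669 in Aspp1-/-p53-/-, 5761 in p53-/-, 9138 in Aspp1-/- and 14000.5 in WT cells, and Stk17b, a kinase of the death-associated family, was at −1.78. The largest differences above 0 among them were 0.65 for Rsrp1, 0.63 for Eaf2 and 0.55 for Kpna2.

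Genes with several probes allow a technical check. Of 4045 genes with 2 or more probes measured on both arrays, 40 were past 2-fold by the brightest probe, and all their probes had the same sign in 25 of 29 lower and 10 of 11 higher genes. Over all 4045 the probes had the same sign in 61.2%. Every probe was past 2-fold for 12 lower genes and 2 higher genes. Beyond Skil, Nr4a2, Pde4b, Crem, Camp, Apold1 and DXBay18, the lower ones included Tiparp, a target of the aryl hydrocarbon receptor, at −1.36, Rabgef1 at −1.14 and Coq10b at −1.72. The higher ones were C5ar2, which encodes a receptor for the complement fragment C5a, and 9130019O22Rik. C5ar2 gave 352 in Aspp1-/-p53-/-, 215 in p53-/-, 132 in Aspp1-/- and 91.6 in WT cells, with its probes at 1.53 and 2.03, and 9130019O22Rik was at 1.33, or 0.57 with normexp.

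The higher genes were mostly dim. Of the 76, 5 belonged to any of the 51 lists (6.58%), close to the 7.80% of all measured genes. Of the 174 lower genes 75 did (43.1%), but the lists were chosen with these results known. Mageb1, a gene of the melanoma antigen family that is normally restricted to testis, gave 349.5 in Aspp1-/-p53-/-, 38.3 in p53-/-, 34.4 in Aspp1-/- and 34.7 in WT cells. The orphan receptor gene Gpr141 gave 198 in Aspp1-/-p53-/-, 36.0 in p53-/-, 16.3 in Aspp1-/- and 24.0 in WT cells. Mrgpra4, another G protein-coupled receptor gene, gave 287 in Aspp1-/-p53-/- and 35.8 in WT cells. On the other arrays the probes of Gpr141, Mrgpra4, Mxra8 and Anxa8 were well above background on 1 of 2, and those of Pla2g2d and Aknad1 on none. Pla2g2d, a secreted phospholipase, was at 2.77, Mxra8 at 2.59, the olfactory receptor gene Olfr700 at 2.41, Slc17a8 at 2.34, Krt13, a keratin, at 2.20 and Aknad1 at 2.17. Trim69, Zp1 and Anxa8 followed at 2.16, 2.08 and 2.05, and Aknad1 was at 0.87 with normexp. Slc17a8 and Trim69 were also higher in p53-/- cells, at 1.59 and 1.85, whereas Mageb1 and Krt13 were at 0.12 and −0.01 there.

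The p53-/- and Aspp1-/- arrays took no part in the 2-fold rule that chose the 174 lower and 76 higher genes. Of the 174 lower genes 172 were measured on both of those arrays, and 139 of them (80.8%) were lower in p53-/- than in Aspp1-/- cells, with a median of −0.33. Over all 13424 genes measured there the share was 50.4% and the median 0.00. Of the 76 higher genes 58 were measured, and 19 (32.8%) lay below 0, with a median of 0.07. The gene lists were written with earlier results of these data known, so their members are not an independent choice. In the 6 early-response lists 68 of 87 lay below 0, with a median of −0.11, and in the EGR and NR4A list 8 of 8. The secondary and tertiary granule genes did not follow, with 7 of 21 below 0 and a median of 0.06. The p53-/- array lies in slide row 2 and comes from mice with Mx1-Cre, so that these cannot be told apart from genotype in this comparison either.

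**Figure D4:**
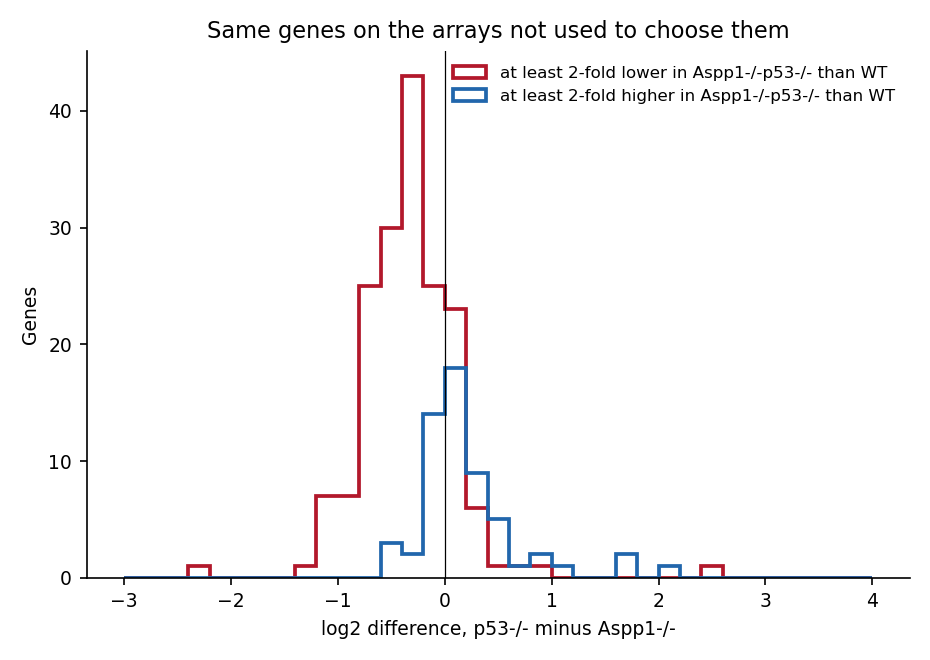
Number of genes (vertical axis) by log2 difference between p53-/- and Aspp1-/- cells (horizontal axis) for the 172 genes at least 2-fold lower (red) and the 58 genes at least 2-fold higher (blue) in Aspp1-/-p53-/- than in WT cells. The red outline lies mostly below 0, with a median of −0.33, and the blue one is centred near 0, with a median of 0.07.

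Against WT, the 174 lower genes had a median of −1.38 in Aspp1-/-p53-/- cells, of −0.73 in p53-/- cells and of −0.34 in Aspp1-/- cells. These comparisons share the WT array. At least 2-fold lower genes made up 1.28%, 0.431% and 0.228% of those measured in the comparisons with Aspp1-/-p53-/-, p53-/- and Aspp1-/- cells. Of the 174, 44 were at least 2-fold lower in p53-/- and 10 in Aspp1-/- cells. Of the 76 higher genes, 5 were at least 2-fold higher in p53-/- and none in Aspp1-/- cells, against 0.504% and 0.114% of all genes in those comparisons.

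Among genes measured on both arrays, those close to the targeted loci passed 2-fold at a share near that of all genes. Within 10 Mb of the Trp53 probe on chromosome 11 lay 283 measured genes, of which Hic1 at −1.97, Atp1b2 at −1.17 and Tmem88 at −1.01 were at least 2-fold lower and Rasd1 was higher at 1.03. This is 1.41% of them, against 1.84% of all genes in either direction. Within 10 Mb of the Ppp1r13b probe on chromosome 12 the single gene of 112 was Jag2, or 0.893%. Genes measured on only 1 array, Sat2 beside Trp53 among them, are not in these counts.

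A further 1150 genes were well above background on only 1 of the arrays, so that their difference is a bound. The bound was taken between the bright signal and either the dim probe's signal or the lowest signal well above background on its array, whichever was higher. It reached 2-fold for 254 genes in favour of Aspp1-/-p53-/- and for 116 in favour of WT cells. The lowest signal well above background was 22.8 on the Aspp1-/-p53-/- array and 16.9 on the WT array. The floor under these bounds thus differed between the arrays, and the counts are not on an equal footing. Sat2 was at least 48.6-fold higher and Rbfox3 at least 28.2-fold, followed by Myt1l at least 27.9-fold, Il2ra, which encodes the alpha chain of the interleukin-2 receptor, at least 24.5-fold, Opn1sw at least 23.2-fold and Adcy10 at least 22.02-fold. Sat2 lies close to Trp53, with its probe 0.0331 Mb from the Trp53 probe (mm9). Of these 6, Sat2 alone was also bright in p53-/- cells, with a signal of 789 in Aspp1-/-p53-/-, 915 in p53-/-, 16.1 in Aspp1-/- and 17.3 in WT cells. Within 10 Mb of the Trp53 probe lay 16 such genes, of which 4 had a bound of at least 2-fold higher and 1 of at least 2-fold lower, and within 10 Mb of the Ppp1r13b probe 13, with 4 and 1. On the low side Abhd11os was at least 13.2-fold lower, Olfr715b at least 12.2-fold, Ubxn10 at least 10.2-fold, and S100a3, Ramp3 and Ssx9 at least 9.93-fold, 9.49-fold and 9.31-fold.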

How the data were processed

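Gene expression was measured on 1-colour (Cy3) Agilent arrays of design 028005, 1 per genotype. Per the file headers, the deposited processed intensity was made with Agilent Feature Extraction 10.7.3.1, has spatial and multiplicative detrending and surrogates for the faintest spots, with the separate background correction option off, and is not normalised between arrays. The other values deposited are raw spot and background intensity and flags of 0 or 1. Per the labels' protocols, RNA was amplified with a low-input kit. The authors' deposited table of log2 values, centred per probe with column medians from −0.07 for WT to 0.05 for Aspp1-/-p53-/-, differed from these files by a constant of 0.10 between the 2 arrays, and the sources used here do not explain it.

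Control spots (3671 per array) and outlier spots (172 for Aspp1-/-p53-/- and 120 for WT) were removed, the remaining spots of each probe averaged, and the log2 intensity was set relative to each array's 75th percentile, a signal of 535 for Aspp1-/-p53-/- and 570 for WT. Between spots of a probe the median standard deviation was 0.06 and 0.05 on the log2 scale. RefSeq named 26762 probes by accession, 3819 by symbol and 639 by synonym, and 24461 had no RefSeq gene. A gene was taken by its brightest probe well above background on both arrays. A difference of at least 2-fold (1 on the log2 scale) was a rule of size and not a test. With 1 array per genotype there is no residual degree of freedom and no p-value, and the number of arrays limits the precision. The comparison, the lists and the naming rule were chosen with earlier results of these data known. Genes were named by a rule that takes both targeted genes, the 15 genes with the largest fall and the 15 with the largest rise, up to 6 list members past 2-fold with further members as examples picked after their values were seen, all measured p53 targets, genes whose probes all pass, the 8 largest differences each way among the brightest genes and the 6 largest bounds each way. A few genes are not reported here. Normexp (offset 50) and quantile normalization used limma 3.58.1 in R 4.3.3, and all else Python 3.11.15.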

Additional observations from a re-analysis of the deposited data

How the results depend on the processing

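Of 13563 genes, the 76 higher and 174 lower became 31 and 112 with normexp background correction, 17 and 117 with a signal of at least 100 on both arrays, and 330 and 290 with genes measured on 1 array added at their bound. With this the share of higher genes among those past 2-fold was 30.4% as reported, 21.7%, 12.7% and 53.2%. The 53.2% includes bounds, whose floor differed between the arrays. Quantile normalization, scaling to the median of measured probes, keeping only probes well above background in all 4 genotypes, the mean of a gene's probes and the authors' table gave 58 to 77 higher and 164 to 174 lower genes, with at least 160 of the 174 lower genes kept by each. With normexp the p53 targets of arrest and feedback at least 2-fold lower numbered 3, against 5, and the median of the secondary granule list was −0.77, and −0.93 with a signal of at least 100, against −1.32. With the mean of probes the stem cell list held 0 genes at least 2-fold lower. None of the 101 named genes past 2-fold changed sign under the 7 settings, wherever a setting kept the gene. Of 143 named genes, past 2-fold or not, the filter for all 4 genotypes kept 135 and that for a signal of at least 100 kept 103. These filters mainly leave genes out. Scaling to the median and the authors' table move all differences by a constant. Such settings could hardly change a sign. With normexp 16 of the 101 came under 2-fold, and 5 with the mean of probes. The cause of these shifts was not tested. No paired analysis was possible because each genotype has 1 array and the labels give no replicate numbers, and each array lies alone in its slide row for this comparison, so the row could not be used as a block.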

Other observations

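Fatty acid and cholesterol synthesis genes lay below 0 in 18 of 24 measured members in Aspp1-/-p53-/- against WT cells, against 43.3% of all genes, with a median of −0.12 and none past 2-fold. Fasn, the gene of fatty acid synthase, was at 0.12. Of 30 glycolysis and hypoxia genes none passed, and the lowest were the glucose transporter gene Slc2a3 at −0.89 and Vegfa at −0.69. Heat-shock genes held none past 2-fold among 25, with Hspa1a at 0.78, Hspb1 at 0.58 and Dnajb1 at −0.48. Of 37 chromatin regulators the lowest was Kdm6b, a histone demethylase, at −0.71. Antioxidant genes lay between −0.63 for Gclm and 0.29 for Mt2, and genes of the proteasome and of autophagy between −0.47 for Gabarapl1 and 0.19 for Psmb5.

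Probes with no RefSeq gene were more often higher than lower. Of 8320 such probes well above background on both arrays, 209 were at least 2-fold higher and 163 lower in Aspp1-/-p53-/- than in WT cells, whereas named genes past 2-fold were mostly lower. Across chromosomes the share of measured genes past 2-fold lay between 0.964% on chromosome 9 and 3.46% on chromosome 3, leaving aside the few genes of the mitochondrial genome and chromosome Y.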
